A study of Arabidopsis thaliana with 12 samples.

Results

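The 200 genes described here had the highest share of reads counted as intron reads among the 7838 nuclear genes of Arabidopsis thaliana with at least 1000 gene reads summed over 12 libraries. The share was the summed intron reads divided by the summed gene reads, so its values chose the genes and are given below as a description, with no test. The deposited table listed 28642 genes, of which 28496 were nuclear. The 200 genes made up 2.55% of the 7838, and all 200 were matched to a RefSeq locus.

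Wild-type seedlings were treated at day 14 for 90 minutes with an acyl-CoA, a fatty acid joined to coenzyme A, and RNA was sequenced from pools of 80 whole plants. The 4 groups were C18:0 CoA (saturated chain), C18:1 CoA (chain of the same length with 1 double bond), C16:0 CoA (shorter saturated chain) and Control. All 4 groups were kept in liquid half-strength MS medium with 0.5% sucrose and received 0.01% of the surfactant Pluronic F68, and the acyl-CoAs were given at 0.1%. Each group had 3 biological replicates. No allele or transgene was involved.

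In plants the spliceosome removes introns by cutting at a 5′ splice site, which nearly always starts with GT, and a 3′ splice site, which ends with AG. Intron retention is the commonest kind of alternative splicing in plants, and retained introns often carry early stop codons. SR proteins and the glycine-rich RNA-binding proteins are splicing regulators, several of which regulate the splicing of their own transcripts. In a table of read counts an intron read is usually one placed inside a gene but outside its annotated exons. Such a count also depends on how complete the annotated exons are. Single-exon genes had intron reads here too, so that definition does not cover every intron read described below.

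In 26 of the 200 genes, all listed as protein coding in RefSeq, the space outside exons was exactly 1 RefSeq intron. The splice sites of the 6 of these with the most intron reads are shown first. Whether their intron reads lie in that intron was not tested. Each sequence has 30 bases, is given 5′ to 3′ on the gene's own strand, and was read from the RefSeq genome, build TAIR10.1, whose nuclear coordinates are those of TAIR10. Capitals mark the first 2 or the last 2 bases of the intron.
GRP7 5′ site, chr2:9266179-9266208, minus strand: tccaagGTctgttacacgccgagatcggac
GRP7 3′ site, chr2:9265890-9265919, minus strand: tggtttttgtattatttggataacAGatca
CCR1 5′ site, chr4:18274827-18274856, minus strand: tctaagGTctgttacacgagagatcggtct
CCR1 3′ site, chr4:18274564-18274593, minus strand: atgtgtatgattttgtttgtttacAGatca
AT7SL-1 5′ site, chr4:1318195-1318224, plus strand: cacttgGTaagcagtgagttaccattgacc
AT7SL-1 3′ site, chr4:1319043-1319072, plus strand: ctcaactcaacactaattactcacAGcttg
AT3G08520 5′ site, chr3:2586038-2586067, plus strand: gccaagGTtagtaatgggttttgattgttt
AT3G08520 3′ site, chr3:2586115-2586144, plus strand: atggtttgtgtgtttgtgtgttgcAGtgga
AT2G40205 5′ site, chr2:16792496-16792525, minus strand: gctaagGTattcatctttcaaatcttcacc
AT2G40205 3′ site, chr2:16792417-16792446, minus strand: gtttctgtatatgcgtggtttcgcAGtgga
TOM6 5′ site, chr1:18286694-18286723, minus strand: tttcagGTctgattattgaattctatcaat
TOM6 3′ site, chr1:18285760-18285789, minus strand: cgcctattgtcttttatctcgtgcAGcgtt
All 6 introns started with GT and ended with AG. The introns of GRP7 (309 bases) and CCR1 (283 bases), which encode a pair of related glycine-rich RNA-binding proteins, were identical over their first 12 bases.

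The shares of the 200 genes ran from 10.2% to 100%, with a median of 15.7%, against a median of 1.09% in the other 7638 genes with at least 1000 gene reads. The distribution was steep at its upper end. Of the 200 genes, 64 had a share of 20% or more, 20 of 50% or more and 17 of 90% or more. The last genes inside the limit were emb1703 at 10.28%, AT2G42330 at 10.16% and MKP2, a MAP kinase phosphatase, at 10.15%. The first genes outside it were AT3G02300 at 10.15%, AT2G24990 at 10.15% and BT1 at 10.11%, so the limit fell within a continuous run of values. Together the 200 genes held 130659 of the 693920 intron reads of all nuclear genes (18.8%), and 10 of them held 40.3% of that part.

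**Figure D1:**
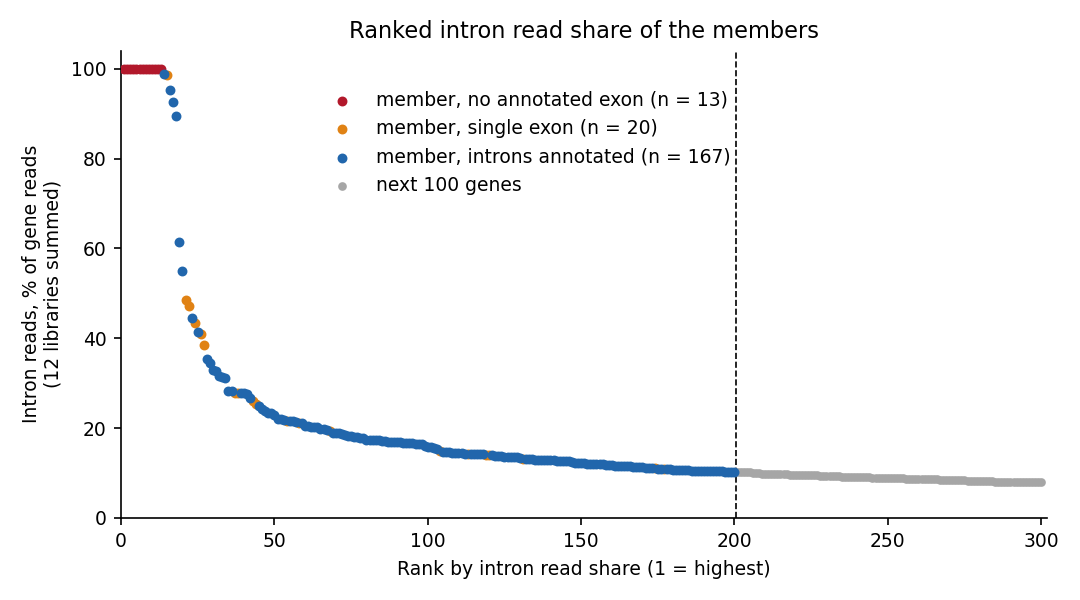
Intron reads as a percentage of gene reads, summed over 12 libraries, against the rank of each gene. Points are the 200 genes, coloured by their annotated structure, and the next 100 genes in grey beyond the dashed line. The share fell steeply over the first ranks and was near 10.2% at the limit.

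The 200 genes were of 3 structural kinds, a grouping made after their values were seen. No exon was annotated for 13 of them in the deposited table, 20 had a single exon and 167 had annotated introns. No gene without an annotated exon was among the other 7638 genes, while 571 of those had a single exon (7.48%) and 7067 had annotated introns (92.5%). For the genes with no annotated exon the share was 100% by construction, since every read in them counted as an intron read.

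The 13 genes without an annotated exon were all non-coding RNA genes and held 50057 intron reads, 7.21% of all nuclear intron reads. They were the 18S ribosomal RNA gene AT3G41768 with 16028 reads, the 5.8S ribosomal RNA gene AT3G41979 with 1138 reads, and 11 other non-coding RNA genes. Among these 11 were GUT15, a long non-coding RNA first described for its unstable transcript, with 7993 reads, and TAS2, a precursor of trans-acting small interfering RNAs, with 1175 reads. The others were AT4G36648 (7369 reads), AT1G10682 (4467 reads), AT4G13495 (3848 reads), AT2G14878 (2051 reads), AT5G07322 (1385 reads), AT4G38932 (1205 reads), AT3G54366 (1198 reads), AT5G48412 (1118 reads) and AT1G11185 (1082 reads). Of the 1138 reads of AT3G41979 only 79 were counted as unique, and unique and total intron reads differed in 4 of the 200 genes.

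The intron reads of GUT15 ranged from 168 to 282 CPM, reads per 1000000 exon reads on TMM-scaled library sizes. They stood at 235, 282 and 243 CPM in C18:0 CoA, 168, 240 and 266 CPM in C18:1 CoA, 281, 229 and 241 CPM in C16:0 CoA, and 243, 252 and 217 CPM in Control. All 4 groups overlapped.

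The 18S ribosomal RNA varied far more between libraries. It had 623, 856 and 422 CPM in C18:0 CoA, 936, 382 and 464 CPM in C18:1 CoA, 481, 1603 and 561 CPM in C16:0 CoA, and 365, 443 and 613 CPM in Control. The highest value was that of C16:0 CoA replicate 2, and the other libraries of that group lay within the Control range.

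The 20 single-exon genes had shares with a median of 23.5% and included several genes of the cell wall. AT2G01021 had the highest share, 98.7%, and lies at chr2:6571-6672, 626 bases from the ribosomal RNA gene AT2G01020. It was followed by EXT6 at 48.5% and the leucine-rich repeat gene AT3G24480 at 47.2%, and then by the extensin-like genes AT4G08400 at 43.3%, EXT10 at 41.0% and AT4G08410 at 38.4%. The transcription factor gene MYC3, a regulator of jasmonate responses, stood at 21.2%, and RALF1, which encodes a peptide hormone, and ARGOS, an organ growth gene, were also among the 20. Intron reads were listed for 2716 of 3870 nuclear single-exon genes with reads, and the counting rule behind them is not given in the sources used here. RefSeq annotates at least 1 intron in 7 of the 20 (35%), against 35 of the other 571 single-exon genes (6.13%).

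Extensins are structural cell wall proteins built from repeated proline-rich motifs. A RefSeq product name with extensin or hydroxyproline-rich glycoprotein in it, a wider group than the extensins, was carried by 9 of the 200 genes (4.5%) and by 34 of the other 7638 genes (0.445%). These words were chosen after the values were seen. A stretch of EXT6 is shown because its repeats fall within the coding exon. The stretch is 150 bases of chr2:10623000-10623149 on the plus strand of TAIR10.1, and capitals mark the copies of the gene's most frequent word of 18 bases, of which 12 lie in the gene.
EXT6: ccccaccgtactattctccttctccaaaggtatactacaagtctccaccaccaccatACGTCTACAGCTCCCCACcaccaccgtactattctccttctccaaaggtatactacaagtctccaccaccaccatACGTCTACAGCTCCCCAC
In EXT6, 60.7% of all words of 25 bases occurred more than once inside the gene. The same measure was 40.3% in AT4G08400, 35.8% in HRGP1 (share 41.5%), 26.9% in EXT10, 46.0% in AT4G08410, 25.9% in EXT13 (share 27.9%) and 34.6% in EXT4 (share 13.0%), and 0 in the other 2, AT3G09925 and AT3G16660. Repeats of this kind were also found in genes of this group with a low share, such as AT5G06630 (45.2% of words repeated, share 0.905%) and AT3G54580 (45.7% of words repeated, share 0.456%). At least 5% of words were repeated in 7 of the 20 single-exon genes (35%) and in 9 of the other 571 (1.58%), and the part of repeats in the counts was not tested.

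EXT6 kept a high share in every library. It had 47.1%, 63.6% and 46.7% in C18:0 CoA, 60.0%, 44.2% and 49.7% in C18:1 CoA, 52.4%, 47.4% and 42.7% in C16:0 CoA, and 43.4%, 52.0% and 55.2% in Control. The groups overlapped throughout, with means of 52.5 ± 9.66% in C18:0 CoA, 51.3 ± 8.01% in C18:1 CoA, 47.5 ± 4.83% in C16:0 CoA and 50.2 ± 6.10% in Control (SD, n = 3 each).

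The 167 genes with annotated introns had a median share of 14.4%, against 1.15% in the other 7067 such genes. Per length, they had a median of 271 intron reads per kb outside exons, against 30.6 in the other genes, and a median of 921 exon reads per kb of exon, against 1220. The ratio of the read density outside exons to that inside exons, both per kb, was 0.255 at the median, against 0.0223 in the other genes. This ratio exceeded 1 in 19 of the 167 genes and in 4 of the other 7000 genes for which it could be computed.

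**Figure D2:**
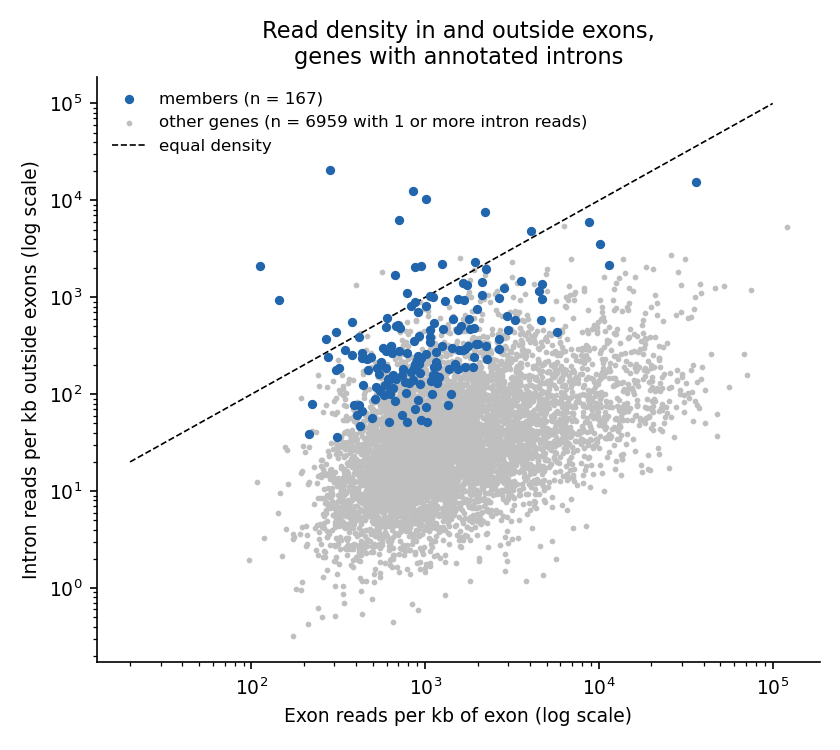
Intron reads per kb outside exons against exon reads per kb of exon, both on log scales, for the 167 genes with annotated introns among the 200 (blue) and for the other genes with annotated introns and at least 1 intron read (grey). The dashed line marks equal density, and 19 of the 167 genes lie above it.

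The highest shares among the genes with annotated introns belonged to a few genes of unlike function. AT3G08520 and AT2G40205, which both encode the small ribosomal protein L41, had shares of 98.9% and 92.7%, AT7SL-1, a 7SL RNA gene of the signal recognition particle that RefSeq lists as protein coding with 2 exons, 95.3%, and the hydroxysteroid dehydrogenase gene HSD2 89.5%. AT1G73885, an AT-rich interactive domain gene, followed at 61.3%, AT3G61010 at 54.9%, the uncharacterized AT1G67785 at 44.4% and HRGP1 at 41.5%. TOM6, a subunit of the import pore of the mitochondrial outer membrane, had 27.8%.

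AT3G08520 is shown whole because its annotated exons cover only 78 bases. It spans chr3:2586032-2586206 on the plus strand of TAIR10.1, and capitals mark its RefSeq exons within that span.
AT3G08520: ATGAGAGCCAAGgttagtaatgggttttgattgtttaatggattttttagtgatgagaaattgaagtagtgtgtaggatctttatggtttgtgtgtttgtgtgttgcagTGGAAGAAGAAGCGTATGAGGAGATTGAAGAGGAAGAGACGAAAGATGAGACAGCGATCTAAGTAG
The lower-case stretch is its single intron of 97 bases, whose ends are the GT and AG printed above. Of its 2026 gene reads, 2004 were intron reads and 22 were exon reads, all of which spanned the exon junction. Its share was 99.0%, 97.4% and 99.4% in C18:0 CoA, 100%, 100% and 98.5% in C18:1 CoA, 100%, 100% and 99.2% in C16:0 CoA, and 97.5%, 99.0% and 97.6% in Control, so it was almost complete in every library.

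The annotation of the 167 genes was set beside that of the other genes with annotated introns. They had a median of 7 exons, as did the other genes, a median length outside exons of 956 bases against 884, and a median longest intron of 466 bases against 357. Their RefSeq introns started with GT and ended with AG in 1137 of 1155 cases (98.4%), against 98.7% in the other genes, and the median AT content of the introns was 66.7% in both. At least 2 RefSeq transcripts were annotated for 120 of the 167 genes (71.9%), against 53.7% of the other genes. In 89 of the 167 (53.3%) a region that is intron in one RefSeq transcript is exon in another, against 29.6%. RefSeq annotates at least 50 further exon bases inside the span that the table gives as intron in 88 of the 167 (52.7%), against 22.8% of the other genes. These are descriptions of annotation, with no test.

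Splicing regulators were among the 200 genes. By RefSeq product names, a count chosen after the values were seen, 12 of the 200 genes (6.0%) named RNA binding or splicing, against 151 of the other 7638 (1.98%). From the list of 18 SR protein genes, 16 had enough reads and 4 were among the 200. These were SR34b at 22.9%, SCL33 at 16.5%, SCL30A at 12.9% and RS31 at 12.1%, and the list's median was 4.79%, with RS2Z32 just below the limit at 9.38%. From 25 other splicing factor genes with enough reads 2 were among the 200, CCR1 (also known as GRP8) at 17.7% and GRP7 at 13.6%, and the list's median was 1.18%. AtRZ-1c, a glycine-rich RNA-binding protein that acts in splicing, was outside these lists, was chosen after its value was seen and had 31.3%.

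Among 11 textbook cases of alternative splicing with enough reads, 2 were among the 200, both MADS-box repressors of flowering whose splicing is known to respond to temperature. They were MAF1, also called FLM, at 21.6%, and AGL31, also called MAF2, at 12.2%. The list's median share was 2.55%. None of 7 circadian clock genes (highest 9.37%), 9 low-oxygen marker genes (highest 7.73%), 5 leaf markers (median 0.0522%) or 3 root markers (median 0.643%) was among the 200. The leaf and root markers counted here, 5 of 5 and 3 of 5 on their lists, each had at least 1000 gene reads, so RNA of both organs was present, as the label of whole seedlings says.

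GRP7 had 4788 intron reads, the most of any gene here with annotated introns. Its share was 13.3%, 15.6% and 11.1% in C18:0 CoA, 12.2%, 15.7% and 11.6% in C18:1 CoA, 17.2%, 9.55% and 16.0% in C16:0 CoA, and 14.6%, 12.9% and 10.8% in Control. The 4 groups overlapped. The means were 13.3 ± 2.26%, 13.2 ± 2.19% and 14.3 ± 4.12% in C18:0, C18:1 and C16:0 CoA, against 12.7 ± 1.90% in Control (SD, n = 3 each).

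Its relative CCR1, whose intron begins with the same 12 bases, had 17.9%, 20.3% and 16.7% in C18:0 CoA, 12.8%, 16.9% and 17.5% in C18:1 CoA, 20.5%, 5.31% and 19.4% in C16:0 CoA, and 17.0%, 18.4% and 19.1% in Control. The lowest value came from C16:0 CoA replicate 2, a library of low depth, and the other 11 libraries lay between 12.8% and 20.5%.

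SCL33 had 18.1%, 4.65% and 16.5% in C18:0 CoA, 8.89%, 19.1% and 19.7% in C18:1 CoA, 20.9%, 0% and 11.7% in C16:0 CoA, and 19.6%, 12.8% and 7.69% in Control. The 0 in C16:0 CoA replicate 2 rested on 81 gene reads. The 3 libraries of low depth and Control replicate 3 had the lowest shares, and no group stood apart.

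MAF1 had 22.6%, 11.8% and 23.8% in C18:0 CoA, 0%, 30.9% and 18.5% in C18:1 CoA, 20.5%, 8.89% and 25.97% in C16:0 CoA, and 21.8%, 21.4% and 21.4% in Control. Each acyl-CoA group had its lowest value in its library of low depth, and all 3 overlapped Control. SR34b, SCL30A, RS31 and AGL31 ranged from 0% to 39.7% over single libraries, and the groups overlapped in each of them.

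**Figure D3:**
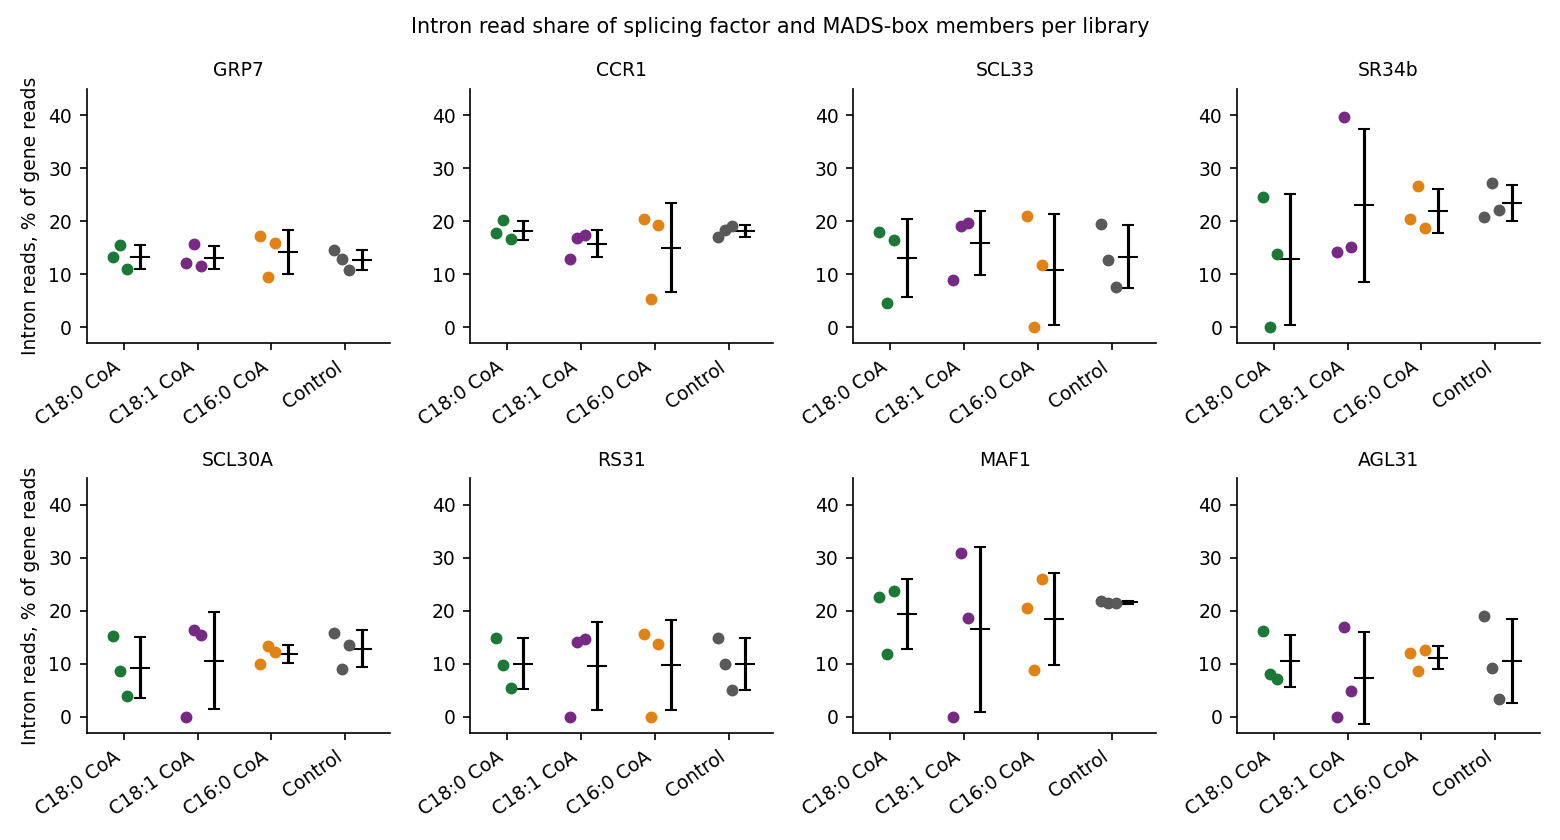
Intron reads as a percentage of gene reads for 8 splicing factor and MADS-box genes among the 200, by group. Points are libraries in replicate order and bars are the mean ± SD (n = 3), and the groups overlap in all 8 panels.

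Most of the 200 genes overlapped no other annotated gene. By RefSeq, 13 of the 200 genes overlapped another gene on the same strand (6.5%), against 135 of the other 7638 (1.77%). Another 27 overlapped a gene on the opposite strand only (13.5%), against 1531 (20.04%), and 160 overlapped none (80.0%), against 5972 (78.2%). A further gene was nested inside the span of 15 of the 200 (7.5%), against 6.07%. Whether the counting used strand is not given in the sources used here, so reads of a gene and of its overlapping partner cannot be told apart.

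The overlapping genes with the most intron reads on the same strand were mostly the non-coding RNAs. GUT15 holds 81 bases of the pseudogene AT2G10045, AT4G13495 holds 221 bases of the microRNA gene AT4G13493, and AT3G41979 shares 164 bases with the long non-coding RNA gene AT3G06355. AT5G27860, an uncharacterized gene, and AT1G58602, an NB-ARC disease resistance gene that holds 4572 bases of the pseudogene AT1G58561, followed. Disease resistance genes with NB-ARC or TIR domains were 4 of the 200 (2.0%), against 12 of the other 7638 (0.157%), again a count chosen after the values were seen.

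On the opposite strand, AT2G40205 overlapped AT2G40200 by 60 bases, AT4G38932 overlapped AT4G38930 by 107, and the RNA-binding protein gene AT1G66260 (share 19.8%) overlapped AT1G66250 by 21. EXT10 holds 692 bases of AT5G06645, and AT2G43140, a bHLH gene with a share of 21.0%, overlapped the long non-coding RNA gene AT2G09420 by 328. With no overlap in RefSeq, the most intron reads were in AT3G41768, AT4G36648, GRP7, AT1G10682 and AT2G01021.

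The libraries differed in depth, from 348140 to 6126277 exon reads, and 3 had fewer than 1000000: replicate 1 of C18:1 CoA and replicate 2 of both saturated acyl-CoAs. A gene of the 200 had a median of 122 gene reads per library, and the lowest was 0. The 95% exact (Clopper-Pearson) interval of a gene's summed share was 3.62 percentage points wide at the median and wider than 5 points in 14 genes, which covers counting error only. All C16:0 CoA libraries and C18:1 CoA replicate 3 carried one sequencing index and the other libraries another, so in the comparison of C16:0 CoA with Control index and treatment cannot be told apart. C16:0 CoA replicate 2 stood apart in its non-coding RNAs, and values without it are given beside several results below. By the lane codes in the labels, no sequencing lane held both a C18:0 CoA and a Control library. In that comparison lane and treatment cannot be told apart. The same holds for C18:1 CoA against C18:0 CoA and for C18:1 CoA against C16:0 CoA, which shared no lane. Between C18:0 and C16:0 CoA, index and treatment cannot be told apart.

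Summed over the 200 genes, the share was 28.7%, 31.4% and 25.5% in C18:0 CoA, 30.6%, 28.8% and 26.4% in C18:1 CoA, 28.2%, 36.4% and 26.9% in C16:0 CoA, and 27.4%, 25.4% and 26.3% in Control. C16:0 CoA replicate 2 was highest, and every acyl-CoA group overlapped Control. The means were 28.5 ± 2.98% in C18:0 CoA, 28.6 ± 2.103% in C18:1 CoA, 30.5 ± 5.17% in C16:0 CoA and 26.4 ± 1.02% in Control (SD, n = 3 each). The differences from Control were 2.17, 2.24 and 4.17 percentage points for C18:0, C18:1 and C16:0 CoA. Without the low-depth library of each group they were 0.719, 1.25 and 1.22. The 13 genes without an annotated exon enter this sum at 100%, so it also follows their read level. They held 50057 of the 130659 intron reads of the 200 genes.

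Over the 167 genes with annotated introns the groups were closer. The share was 18.1%, 17.8% and 15.9% in C18:0 CoA, 17.1%, 20.4% and 17.6% in C18:1 CoA, 19.4%, 18.1% and 17.4% in C16:0 CoA, and 18.5%, 16.6% and 15.9% in Control. All groups overlapped, and the means exceeded Control by 0.285, 1.36 and 1.29 percentage points in C18:0, C18:1 and C16:0 CoA. The median over the 167 genes gave differences of -1.24, -0.271 and -1.04 points, so the direction differed between summed reads and equally weighted genes. Each acyl-CoA group held a low-depth library and Control did not, and the part of depth in these medians was not tested.

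The 20 single-exon genes together had 31.6%, 30.1% and 30.6% in C18:0 CoA, 39.4%, 27.5% and 27.1% in C18:1 CoA, 29.7%, 37.8% and 28.2% in C16:0 CoA, and 25.8%, 30.4% and 31.2% in Control. Low-depth libraries, replicate 1 of C18:1 CoA and replicate 2 of C16:0 CoA, were the highest, and every acyl-CoA group overlapped Control. The means were 30.8 ± 0.744%, 31.3 ± 7.02% and 31.9 ± 5.16% in C18:0, C18:1 and C16:0 CoA, against 29.1 ± 2.92% in Control (SD, n = 3 each). Without the low-depth library of each group the means were 31.1%, 27.3% and 28.9% in C18:0, C18:1 and C16:0 CoA, so those of C18:1 and C16:0 CoA then lay below Control.

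**Figure D4:**
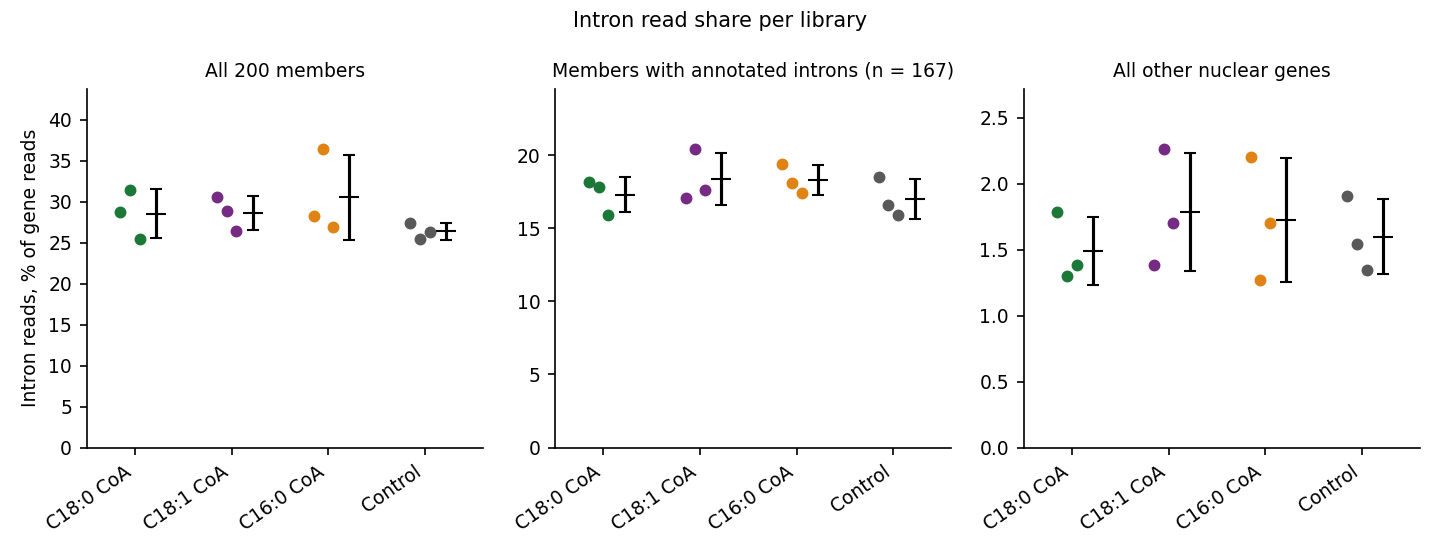
Intron reads as a percentage of gene reads per library, for the 200 genes, for the 167 of them with annotated introns and for all other nuclear genes, each on its own scale from 0. Points are libraries in replicate order and bars are the mean ± SD (n = 3). C16:0 CoA replicate 2, at 36.4%, stands above the other libraries in the first panel alone.

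Over all nuclear genes, the share was 1.87 ± 0.264%, 2.17 ± 0.447% and 2.16 ± 0.426% in C18:0, C18:1 and C16:0 CoA, against 1.96 ± 0.283% in Control (SD, n = 3 each). By exact two-sided permutation the differences from Control had p = 0.7, 0.6 and 0.6, all 0.7 after Benjamini-Hochberg adjustment over the 3 comparisons. The smallest p that 3 libraries against 3 allow is 0.1.

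The shares of single genes varied between replicates as well as between groups. In the 167 genes with annotated introns the range of the 4 group means had a median of 6.91 percentage points, against a median SD within groups of 6.75 points. The range exceeded 2 such SDs in 12 of the 167 genes and in 2 of the 20 single-exon genes.

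The ratio of intron to exon reads was tested in each of 2903 genes with at least 50 reads of both kinds, among them 185 of the 200. The genes had been chosen on reads summed over all libraries, without any comparison of groups. With edgeR's quasi-likelihood test and Benjamini-Hochberg adjustment, 0 genes passed an adjusted p of 0.05 in the 3 comparisons with Control and in the 3 among the acyl-CoAs, and DESeq2 also called 0. At an unadjusted p under 0.05 stood 0 of the 185 for C18:0 CoA, 1 for C18:1 CoA and 1 for C16:0 CoA, each against Control, where the background over all genes tested was 1.58%, 1.69% and 2.1%. The median log2 change of the ratio in the 185 genes was -0.04 for C18:0 CoA, 0.13 for C18:1 CoA and 0.02 for C16:0 CoA, beside -0.11, 0.23 and 0.09 over all genes tested. The ratio was higher than in Control in 84, 119 and 94 of the 185 (45.4%, 64.3% and 50.8%). Over all genes tested it was higher in 43.2%, 63.2% and 55.1%. The 3 comparisons share the Control libraries.

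**Figure D5:**
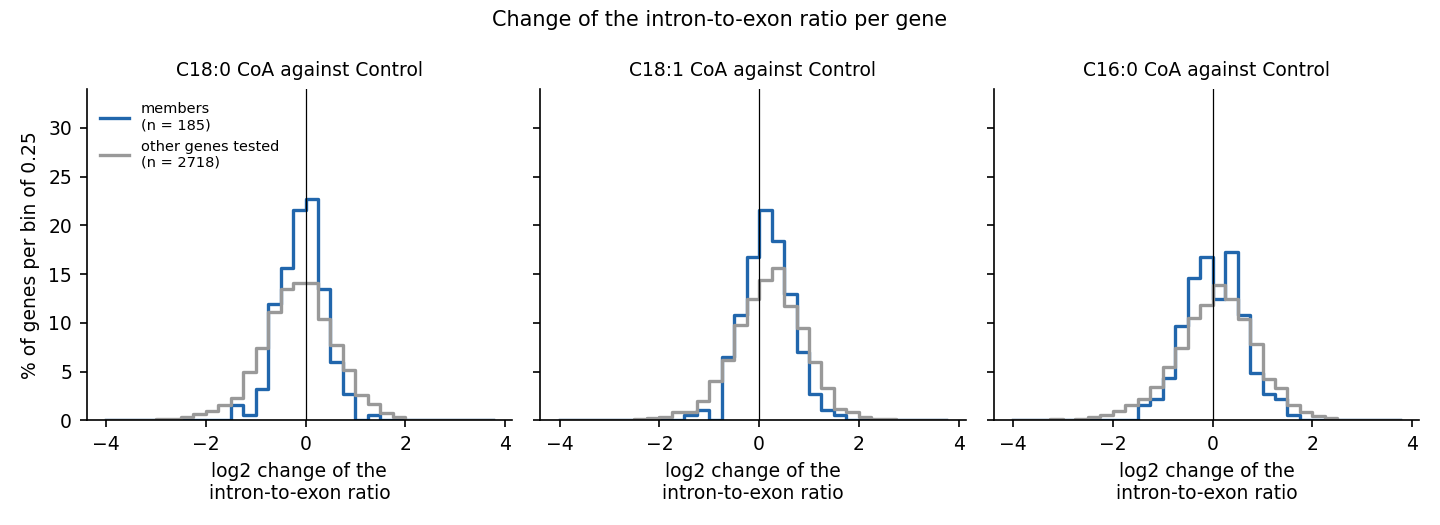
Distribution of the log2 change of the intron-to-exon ratio against Control, as the percentage of genes per bin of 0.25, for 185 of the 200 genes (blue) and the other genes tested (grey). The distributions are centred near 0, with medians of -0.04, 0.13 and 0.02 in the 185 genes for C18:0, C18:1 and C16:0 CoA.

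The gene of the 185 with an unadjusted p under 0.05 in C16:0 CoA was NAC047, a NAC transcription factor gene. Its share was 18.1%, 21.4% and 18.9% in C18:0 CoA, 31.6%, 21.3% and 15.3% in C18:1 CoA, 30.4%, 41.1% and 22.8% in C16:0 CoA, and 15.1%, 13.7% and 7.27% in Control. Every library of the 3 acyl-CoA groups lay above every Control library, and the means were 31.4 ± 9.18% in C16:0 CoA and 12.0 ± 4.17% in Control (SD, n = 3 each). Without C16:0 CoA replicate 2 the C16:0 CoA mean was 26.6%. The log2 change of the ratio was 1.62 with an SE of 0.74 (edgeR quasi-likelihood, unadjusted p = 0.0281, Benjamini-Hochberg adjusted p = 0.9996), so it did not pass over all genes. Without C16:0 CoA replicate 2 the log2 change was 1.32 (unadjusted p = 0.0774), and the unadjusted p was also above 0.05 without Control replicate 2 (0.0567) or without Control replicate 3 (0.0751).

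In C18:1 CoA it was AT4G34600. Its share was 12.7%, 24.1% and 11.2% in C18:0 CoA, 52.4%, 30.2% and 10.6% in C18:1 CoA, 19.8%, 57.1% and 11.7% in C16:0 CoA, and 18.2%, 7.27% and 4.23% in Control. The highest values came from libraries with 21 and 14 gene reads, and C18:1 CoA overlapped Control. The log2 change was 1.68 with an SE of 0.79 (edgeR quasi-likelihood, unadjusted p = 0.0328, Benjamini-Hochberg adjusted p = 0.9998).

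The other genes with the smallest p values against Control did not reach an unadjusted p of 0.05. For C18:0 CoA their log2 changes of the ratio were 1.26 in AT2G42330, 0.92 in EXT13, 0.98 in AT4G27300, 0.91 in the WRKY transcription factor gene WRKY65 and 0.93 in AT2G04050 among the higher ones, and -1.36 in the glycosyltransferase gene AT2G41640, -1.46 in AT1G66880, -1.32 in AT3G05570, -1.07 in the glutathione transferase gene GSTU24 and -0.80 in AT5G27860 among the lower ones. For C18:1 CoA they were 1.40 in WCRKC1, 1.34 in AT2G42330, 1.17 in AT4G27300 and 1.17 in AT3G10760, and -1.31 in AT5G26610, -1.03 in AT2G41640, -1.002 in the cyclin gene CYCT1;3, -0.74 in AT1G51820 and -0.66 in AT4G08410. For C16:0 CoA they were 1.31 in AT5G25270, 1.41 in AT4G34600, 1.29 in MYC3 and 1.47 in HSD2, and -1.47 in AT3G61420, -1.50 in AT4G00040, -1.26 in AT5G42060, -1.13 in TRM27 and -1.16 in GSTU24.

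The precision of this test was low. The median SE of the log2 change in the 185 genes was 0.78 for C18:0 CoA, 0.78 for C18:1 CoA and 0.79 for C16:0 CoA against Control, and in 0 of the 185 did the 95% interval lie within a log2 change of 1 either way. GRP7, the best covered of the splicing factors, had log2 changes of 0.07 (interval -1.15 to 1.28), 0.06 (-1.17 to 1.28) and 0.17 (-1.06 to 1.39) in C18:0, C18:1 and C16:0 CoA. Each gene took the spread of the trend in this test, so these intervals do not give GRP7's own spread between replicates. The lowest SE among the 185 genes was 0.62, 0.63 and 0.62 in the same order.

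Between the acyl-CoAs, which differ by 1 double bond (C18:1 against C18:0), by chain length (C18:0 against C16:0) or by both (C18:1 against C16:0), no gene of the 185 passed either (edgeR quasi-likelihood, adjusted over all genes tested). At an unadjusted p under 0.05 stood 3 of the 185 for C18:1 against C18:0 CoA (background 3.13%), 1 for C18:0 against C16:0 CoA (2.27%) and 0 for C18:1 against C16:0 CoA (2.17%). Median log2 changes of the ratio in the 185 genes were 0.20, -0.11 and 0.15 in the same order, beside 0.32, -0.23 and 0.12 over all genes tested. The SEs had medians of 0.82, 0.83 and 0.83, and again 0 intervals lay within a log2 change of 1 either way, so these data do not show that the 3 compounds act alike.

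The level of intron reads alone was tested in 3111 genes, including all 200. With edgeR's quasi-likelihood test and Benjamini-Hochberg adjustment, 0 genes passed in any of the 6 comparisons, and DESeq2 also called 0. At an unadjusted p under 0.05 stood 2, 5 and 13 of the 200 for C18:0, C18:1 and C16:0 CoA against Control, where the background over all genes tested was 1.35%, 1.58% and 3.44%. Among the acyl-CoAs there were 7 for C18:1 against C18:0 CoA (background 3.02%), 5 for C18:0 against C16:0 CoA (2.67%) and 4 for C18:1 against C16:0 CoA (2.06%). In bulk samples, fewer cells of a type and less RNA per cell cannot be told apart.

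The lowest p values for C16:0 CoA against Control came from RNA genes such as AT7SL-1, and they rested on 1 library. AT7SL-1 had 45.03, 119 and 73.1 CPM of intron reads in C18:0 CoA, 121, 51.5 and 42.6 CPM in C18:1 CoA, 54.9, 359 and 60.9 CPM in C16:0 CoA, and 27.1, 66.5 and 58.7 CPM in Control. Only C16:0 CoA replicate 2 lay above the range of the other libraries. The log2 change was 1.61 with an SE of 0.40 (edgeR quasi-likelihood, Benjamini-Hochberg adjusted p = 0.208), and without that library it was 0.19. The call at an adjusted p of 0.05 was reached where replicate 1 of C18:1 CoA, or replicate 1 or 3 of C16:0 CoA, was left out (adjusted p = 0.0457, 0.00787 and 0.0236).

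Other genes showed the same pattern. For C16:0 CoA against Control, the log2 changes of intron reads were 1.41 in AT4G38932, 1.10 in AT2G01021, 0.89 in AT3G41768 and 0.88 in AT1G10682, and without C16:0 CoA replicate 2 they were 0.20, 0.09, 0.13 and 0.06. These 4 genes were chosen after their values were seen. Of the 13 genes without an annotated exon, 8 had their highest level of intron reads in that library. Their summed level was 3402 CPM there, against 1381 to 2241 CPM in the other 11 libraries, and ribosomal RNA genes made up 0.153% of its gene reads, against 0.0391% to 0.0973% elsewhere. Without it, 8 of the 200 genes had an unadjusted p under 0.05 instead of 13. The share over all genes tested in that setting is not given here, so the 8 cannot be set beside a background.

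EXT4, an extensin with annotated introns, was also chosen after its values were seen, as a gene of the 200 called in an alternative setting. It had 27.6, 29.8 and 157 CPM of intron reads in C18:0 CoA, 8.85, 17.0 and 35.1 CPM in C18:1 CoA, 30.6, 10.7 and 32.7 CPM in C16:0 CoA, and 37.6, 107 and 36.3 CPM in Control. C18:0 CoA replicate 3 and Control replicate 2 stood far above the rest, and both also had the highest exon level, at 838 and 712 CPM. The log2 change of intron reads was -1.44 for C18:1 CoA against Control (SE 0.45, edgeR quasi-likelihood, Benjamini-Hochberg adjusted p = 0.9998). EXT4 passed the test for C18:1 against C18:0 CoA, another comparison, where C16:0 CoA replicate 2 was left out (adjusted p = 0.0134). With all 12 libraries the lowest adjusted p of the 200 genes in that comparison was 0.570 (edgeR quasi-likelihood, Benjamini-Hochberg).

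The level of exon reads was tested in 17036 genes, including 184 of the 200. With edgeR's quasi-likelihood test and Benjamini-Hochberg adjustment, 0 genes passed in the 6 comparisons, while DESeq2 called 2 for C18:1 CoA against Control and 1 for C18:1 against C16:0 CoA, none of them among the 200. At an unadjusted p under 0.05 stood 3, 10 and 19 of the 184 for C18:0, C18:1 and C16:0 CoA against Control, where the background over all genes tested was 1.88%, 1.99% and 4.03%. Among the acyl-CoAs there were 6 for C18:1 against C18:0 CoA (background 2.64%), 15 for C18:0 against C16:0 CoA (2.11%) and 12 for C18:1 against C16:0 CoA (2.84%). Of the 19 for C16:0 CoA against Control, 15 were higher, where 2.74% of all genes tested were. The median log2 change of the 184 genes was -0.08, 0.00 and 0.05 for C18:0, C18:1 and C16:0 CoA against Control, beside 0.00 in all 3 over all genes tested.

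The authors' deposited table gives FDR-corrected p-values of Baggerley's test, which compares proportions of reads. For C18:0 CoA against Control, 8 of the 200 genes were under 0.05 in the authors' deposited table, where 3.65% of all genes were. For C18:1 CoA there were 8 in the authors' deposited table (3.22% of all genes), and for C16:0 CoA 15 (2.9% of all genes), all 15 of them higher than in Control (2.15% of all genes). These percentages are over all 28642 genes listed, with no read minimum. Each of the 200 genes had at least 1000 gene reads, so the counts and percentages are not directly comparable.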

How the data were processed

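The authors deposited a table of counts of exon, intron, exon-exon and gene reads for each gene in each library, per the file headers. Libraries were made with a stranded poly(A) kit and sequenced as paired ends, per the labels' protocols, and mapped to TAIR10, per the submitters' processing notes. Which aligner and annotation release were used, and whether counting used strand, is not given in the sources used here. FDR-corrected p-values were also deposited by the authors with differences of weighted proportions, a score per comparison, from Baggerley's test, per the file headers. One line naming no gene was left out, and 0 per-sample columns belonged to other samples. Starts were moved to count from 1.

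Exon reads were tested with edgeR 4.0.16 (R 4.3.3) over all 12 libraries, with TMM scaling, filterByExpr and 1 mean for each group. Intron reads used the same scaling and needed 50 reads in sum. The ratio was tested on exon and intron reads of each library in one model with a term per library. Tests were two-sided with Benjamini-Hochberg adjustment over all genes tested. The SE is the unshrunk log2 change divided by the square root of F, and intervals are approximate. For the intron tests the prior degrees of freedom were infinite, so each gene took the spread of the trend. The fits were checked on simulated counts, whose intron reads varied less between replicates than those here. That check therefore does not give the power of the intron tests in these data. The replicates were called biological in the series' design, and p-values measure the spread between these pools.

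The genes, lists and comparisons were chosen with earlier results of these data known. Named genes are the 25 highest shares, 3 on either side of the limit, members of the fixed lists, the 5 smallest p in each direction of the ratio test against Control, and the 5 with most intron reads per kind of overlap. Other genes named were chosen after their values were seen. Alternatives were another read minimum, other ratios, other sets of libraries, DESeq2 1.42.0, no filter, a replicate block and leaving out each library. Sequences, symbols and overlaps came from RefSeq (TAIR10.1). Spans overlapped in all 28009 matched genes and were identical in 6035 of them. Of 3193 single-exon coding models with an exon length that is a multiple of 3, 2124 had start and stop codons at their ends. CPM values are on TMM-scaled exon library sizes.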

Additional observations from a re-analysis of the deposited data

How the results depend on the processing

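Of 336 alternative settings of the 3 tests, 323 called 0 genes and 13 called at least 1. In 4 of these a gene of the 200 was called, each time with 1 library left out, as given above for AT7SL-1 and EXT4. For exon reads, without the 3 libraries under 1000000 exon reads, 5 genes were called for C18:1 CoA against Control, 2 for C16:0 CoA against Control and 1 for C18:1 against C16:0 CoA. DESeq2 called 2, 0 and 1 in the same comparisons, and with no filter beyond 1 read edgeR called 1, 0 and 1. Leaving out each library in turn gave 0 to 1 genes for exon reads in C18:1 CoA against Control and against C16:0 CoA, 0 to 1 for intron reads in C16:0 CoA against Control and in C18:1 against C18:0 CoA, and 0 in all other comparisons. All 555 alternative values of the 30 ratio changes of the named genes kept their direction, and 0 passed the threshold. These 30 were chosen by the smallest p in each direction of the same test, and the alternatives reused most of the same libraries. Their agreement in direction is therefore no independent support. DESeq2 used size factors of exon reads for the intron tests.

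The difference in share from Control, in percentage points, changed sign in several settings. Over all nuclear genes the median over genes gave -0.00236 for C16:0 CoA, and over the 200 genes the median gave -0.392 for C18:0 CoA and -0.185 for C16:0 CoA. Over the 167 genes with annotated introns, a set added after the data were seen, it gave -1.24, -0.271 and -1.04 for C18:0, C18:1 and C16:0 CoA. Leaving out each library in turn moved the difference for C18:0, C18:1 and C16:0 CoA from -0.240 to 0.0656, -0.0321 to 0.408 and -0.0286 to 0.393 over all nuclear genes. The ranges were 0.719 to 3.69, 1.25 to 3.34 and 1.22 to 5.99 over the 200 genes, and -0.270 to 1.04, 0.327 to 2.11 and 0.731 to 2.04 over the 167. Those over the 200 genes include the 13 genes at 100% by construction and so also follow their read level. C18:0 CoA turned negative over the 167 without C18:0 CoA replicate 1 (-0.135) or without Control replicate 3 (-0.270). Over the 20 single-exon genes, also added after the data were seen, the ranges were -0.0210 to 2.69, -1.87 to 4.31 and -0.230 to 4.56. The sign changed for C18:0 CoA without Control replicate 1, for C18:1 CoA without C18:1 CoA replicate 1 (-1.87) and for C16:0 CoA without C16:0 CoA replicate 2 (-0.230), and leaving out all 3 libraries under 1000000 exon reads gave the same -1.87 and -0.230.

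The list of 200 depended on the read minimum. Of the 200 genes, 91 stayed with a minimum of 500 gene reads, 61 with 2000, 42 with the Control libraries alone and 87 with the acyl-CoA libraries alone at the same minimum. The 61, 42 and 87 were all the members that passed the read minimum in those settings, so the minimum set these counts. With the minimum scaled to the number of libraries, chosen after seeing the data, 117 stayed with the Control libraries (at least 250 reads) and 145 with the acyl-CoA libraries (at least 750). The mean of the library ratios and the libraries over 1000000 exon reads each kept 183, and 160 had no overlapping gene.

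The replicate block called 0 genes in all comparisons. Replicate numbers did not pair the libraries: 5 of 18 same-numbered pairs correlated above 0.1 in their deviations from the group means (range -0.226 to 0.234), and 3 of 12 libraries correlated best with their own number.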
